A study of Mus musculus with 12 samples.

Results

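The cytosolic ribosomal protein genes were taken as the protein-coding genes whose GENCODE M21 symbol starts with Rpl or Rps followed by a number and, where present, the letters a, l, x or y and a further number, together with Rplp0, Rplp1, Rplp2 and Rpsa. The rule found 84 genes, 52 of the large (60S) and 32 of the small (40S) subunit, among 55401 gene identifiers, and all 84 were matched by Ensembl identifier. They were measured by RNA-seq in 12 libraries of Neuro-2a, a mouse neuroblastoma cell line, in 3 groups of 4 libraries numbered as biological replicates 1 to 4. Cells in 1 well per condition received 1 µg of a GFP plasmid and 3 µg of plasmids that express artificial microRNAs built on the miR30 backbone: a scramble sequence (control), a pool of 3 against Rbmx (Rbmx knockdown) or a pool of 2 against Rbmxl1 (Rbmxl1 knockdown). GFP-positive cells were sorted after 48 h, so the GFP plasmid, the transfection and the sort are shared by every group. Total RNA was depleted of ribosomal RNA. The series title names functional compensation between RBMX and its retrocopy RBMXL1. The labels do not say how the wells of the 4 replicates were spaced in time, and p-values measure the spread between these libraries.

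Cytosolic ribosomes are built from ribosomal RNA and one copy of most ribosomal proteins, and their genes are among the most highly transcribed in dividing cells. The messengers typically begin with a run of pyrimidines, the 5′ terminal oligopyrimidine motif, through which mTOR signalling and the RNA-binding protein LARP1 control their translation and stability; messengers of several translation factors carry it too. RBMX is an RNA-binding protein that acts in splicing and in genome stability. Ribosomal protein genes have given rise to many processed pseudogenes, intronless copies pasted back into the genome, which makes short reads from these genes hard to place.

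Start regions of 64 of the 84 genes were found in RefSeq (build GRCm38.p6). For 22 of these 64 (34.4%), a run of at least 8 C or T reached within 5 bases of the annotated start, as against 9.7% of the 32851 start regions in the table. The letters CCGGAA, the core of an ETS-factor motif, stood on either strand in the 300 bases around the start of 51.6% of them, against 14.9% of all, and TATAAA in 9.4%, against 13.6%. Such matches describe letters only. The start windows of 6 genes are shown as examples of runs of different length and place. Each has 15 bases before the annotated start and 15 from it onwards, with the longest C/T run that reaches within 5 bases of the start in capitals: Rps27 (chr3:90213634-90213663, minus strand), its paralogue Rps27l (chr9:66946071-66946100, plus strand), Rps6 (chr4:86857353-86857382, minus strand), Rps10 (chr17:27635230-27635259, minus strand), Rpl22l1 (chr3:28805493-28805522, plus strand) and Rpl41 (chr10:128549154-128549183, minus strand).
Rps27: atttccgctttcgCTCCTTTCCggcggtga
Rps27l: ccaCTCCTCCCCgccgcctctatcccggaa
Rps6: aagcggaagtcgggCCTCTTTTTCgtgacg
Rps10: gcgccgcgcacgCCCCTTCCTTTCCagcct
Rpl22l1: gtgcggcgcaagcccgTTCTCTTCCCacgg
Rpl41: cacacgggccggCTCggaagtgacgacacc
In Rps27 the run spans the annotated start, whereas in Rps27l a run of the same length ends before it. Rps10 has the longest run of the 6 and Rpl41 the shortest.

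The libraries held 43096846 to 52241198 reads assigned to genes, and 52.3% to 57.4% of each file's total stood in rows that name no gene. The labels held for the targets. Rbmx was at 57.6, 67.8, 72.2 and 73.3 CPM (read counts scaled to a common library size) in scramble replicates 1 to 4 and at 22.2, 24.7, 31.0 and 32.6 in Rbmx knockdown. Rbmxl1 was at 31.3, 36.7, 34.2 and 34.2 CPM in scramble and at 16.7, 12.9, 14.7 and 12.3 in Rbmxl1 knockdown. Of 15 fixed markers of the neuroblastoma line, 13 averaged at least 1 CPM, and Nefm was not among these. Summed markers of fibroblasts (0.975 to 2.98 CPM), macrophages (0.518 to 1.68), endothelium (5.11 to 8.75, mostly Pecam1) and glia (12.86 to 19.96, mostly Mbp) were low in every library, and Col3a1, Thy1, Cldn5 and Aqp4 had no read.

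Ribosomal protein genes took 4.35%, 4.43%, 3.51% and 3.73% of the reads in genes in scramble replicates 1 to 4. The share was 4.837%, 4.501%, 3.552% and 3.89% in Rbmx knockdown and 4.67%, 4.32%, 3.43% and 3.85% in Rbmxl1 knockdown. Group means were 4.01% ± 0.455, 4.196% ± 0.5805 and 4.07% ± 0.544 (SD, n = 4 each), so the groups overlapped and their means differed by less than the SD within each, which holds the difference between replicates. Against the same-numbered scramble library the share was higher in 4 of 4 Rbmx knockdown libraries and in 2 of 4 Rbmxl1 knockdown libraries. Replicates 1 and 2 lay between 4.32% and 4.84% in every group, and replicates 3 and 4 between 3.43% and 3.89%. In such bulk samples, fewer cells of one kind and less RNA per cell cannot be told apart.

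**Figure D1:**
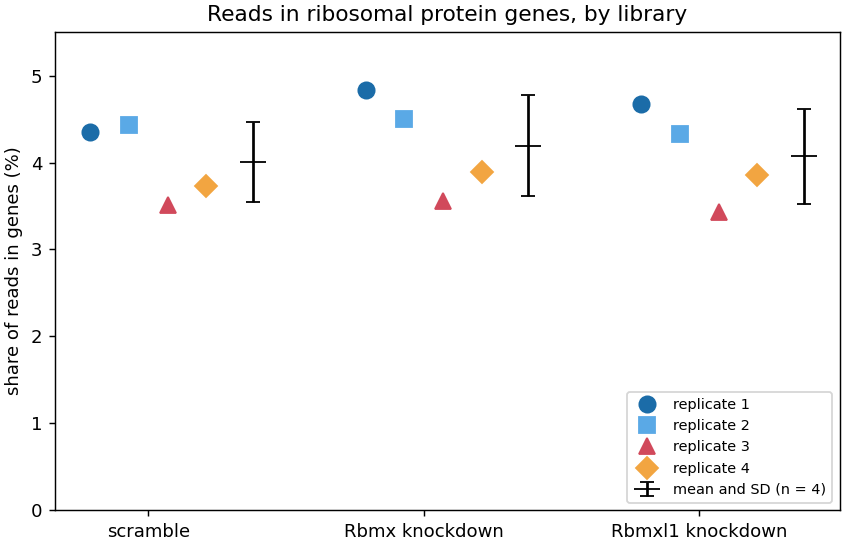
Share of reads in genes that fell in the 84 ribosomal protein genes, by group, with 1 marker per library (shape and colour give the replicate number) and the group mean with its SD (n = 4). In each group replicates 1 and 2 (4.32% to 4.84%) sit above replicates 3 and 4 (3.43% to 3.89%).

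The genes spanned a wide range of levels in control cells. Per kilobase of the principal transcript, the 82 genes that passed the low-count filter had a median of 488 CPM per kb in scramble (quartiles, 259 and 666). These values depend on the annotated length, which ran from 345 to 5179 bases. Genes with a long principal transcript, such as Rps15a (5179 bases) and Rps20 (3706), can come out low per kb. The highest were Rplp1, an acidic protein of the stalk that recruits translation factors, at 1776 ± 106 CPM per kb (SD, n = 4), the large-subunit proteins Rpl8 (1669 ± 158) and Rpl4 (1473 ± 166), and the small-subunit proteins Rps15 (1555 ± 264) and Rps2 (1265 ± 79.9). Neighbours in this order of level differed by less than the larger of their SDs, except Rpl4 and Rps2. The lowest were Rpl24 (1.86 ± 0.237), Rpl36al (2.86 ± 0.635), Rps10 (15.5 ± 2.22), Rpl29 (16.4 ± 1.58) and Rpl39l (22.3 ± 2.43 CPM per kb). Rpl10l and Rpl3l, paralogues known from testis and from muscle, did not pass the filter: Rpl10l had 1 read in each of 2 libraries and none in the others, and Rpl3l had 4 to 12 reads per library.

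Of the 5 lowest genes, 4 shared much of their sequence with other genes. Reads with several alignments were held in a row of their own and not given to a gene, so counts of genes with copies elsewhere can be too low. Words shared with an overlapping gene at the same locus do not by themselves give several alignments. Of the 50-base words of the Rpl24 transcript, 81.7% occurred in another annotated transcript, mostly in Gm28037, which overlaps Rpl24 and had no reads. The figures were 63.3% for Rpl36al (mostly the overlapping Gm49383, with 2.1 reads on average), 56.8% for Rps10 and 66.8% for Rpl29. For Rps10 the shared words lay mostly in the overlapping readthrough gene RPS10-NUDT3, again with no reads. Rpl39l, the other one, shared 0%. The median over the 84 genes was 51.1%, and 43 genes shared more than 50%. Both strands and overlapping genes count in these shares: Rpl35 had 95.1%, mostly with the overlapping Wdr38. A high share did not by itself go with a low count: Rps27, with 98.6%, stood at 669 ± 185 CPM per kb. Read length and counting mode, which set how many reads such words lose, are not given in the sources used here.

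**Figure D2:**
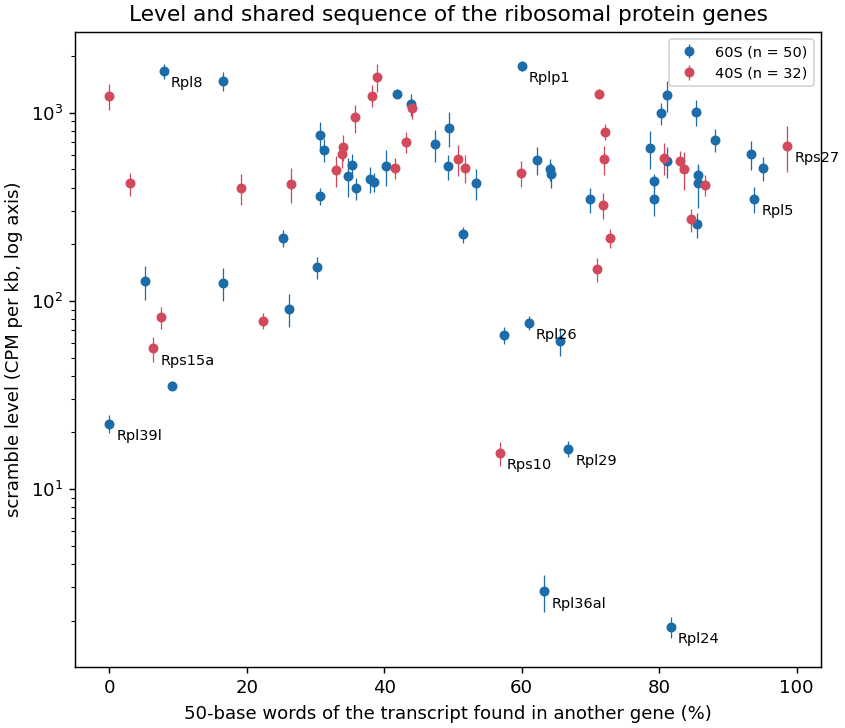
Scramble level in CPM per kb of the principal transcript (log axis, mean and SD of 4 libraries) against the percentage of the transcript's 50-base words found in another annotated transcript, for the 82 tested genes coloured by subunit. Rpl24, Rpl36al, Rps10 and Rpl29 lie low with over 50% of their words shared, and Rpl39l lies low with none shared; many genes with a large share, such as Rps27, lie high.

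In all, 850 annotated pseudogenes matched 80 of the 84 genes, and their summed reads came to 3.23% to 3.80% of the genes' own reads in the 12 libraries. Of these, 7 averaged more than 1000 reads. For 4 genes the leading pseudogene held more reads than the gene: Rps3a1 (6792 reads on average, against 12788 in Rps3a3), Rpl26 (2360 against 6232 in Gm15772), Rpl24 (49.4 against 116 in Gm9385) and Rpl36al (76.8 against 94.9 in Rpl36a-ps3); Rps3a1 and Rpl26 were named after these values were seen. Rps3a3 (chr13:108670603-108671397, plus strand) differed from the Rps3a1 transcript at 9 of 795 bases, and Gm15772 (chr5:3236431-3236868, plus strand) from Rpl26 at 2 of 438. A stretch of 60 bases of each pair shows how few bases can place a read, with the differing bases in capitals.
Rps3a1: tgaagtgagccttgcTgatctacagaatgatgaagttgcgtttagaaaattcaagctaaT
Rps3a3: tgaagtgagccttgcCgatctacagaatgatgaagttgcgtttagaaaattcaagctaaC
Rpl26: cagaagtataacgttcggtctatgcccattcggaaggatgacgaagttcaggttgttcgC
Gm15772: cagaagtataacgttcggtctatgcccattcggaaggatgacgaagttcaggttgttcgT
From replicates 1 and 2 to replicates 3 and 4, Rps3a3 differed by −0.36 ± 0.05 (log2, SE) and Rps3a1 by −0.32 ± 0.04, and Gm15772 by −0.47 ± 0.05 and Rpl26 by −0.22 ± 0.06. All 4 were lower in replicates 3 and 4, close in size for the first pair and further apart for the second; the difference within a pair was not tested. Whether the pseudogenes themselves are transcribed was not tested.

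Knockdown of Rbmx left the ribosomal protein genes close to their control levels: 1 of the 82 tested genes changed, Rpl41, which was higher (4.16% of all genes were called higher). That is fewer than among all genes, of which 8.35% were called in either direction with the replicate number as a block (edgeR's quasi-likelihood test, Benjamini-Hochberg adjusted p under 0.05 over 17569 genes). The estimates leaned upward, with 70 of 82 above 0 and a median log2 fold change of 0.07, where all genes had a median of 0.00. Some related lists leaned the same way: 14 of 16 translation factors (median 0.07) and 59 of 77 mitochondrial ribosomal protein genes (median 0.08) were above 0. So were 2 of 3 further ribosome components (median 0.11). Others did not: 13 of 30 ribosome assembly factors (median −0.015) and 7 of 14 RNA polymerase I genes (median −0.0034) were above 0. For genes of the mTOR, LARP1 and Myc axis it was 4 of 13 (median −0.04). Before adjustment, 12 genes had p under 0.05, against 24.9% of all genes. Rbmx knockdown was above the same-numbered scramble library in every pair for 21 genes (17.7% of all genes) and below it in every pair for 2, Rpl24 and Rps27 (16.8% of all genes). For 80 of the 82 genes the estimate ± 2 SE lay within ±0.5 on the log2 scale, the exceptions being the low-count Rpl24 and Rpl36al.

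Rpl41 encodes the smallest protein of the large subunit. It stood at 633, 770, 589 and 590 CPM in scramble, at 862, 800, 663 and 748 in Rbmx knockdown and at 785, 791, 627 and 767 in Rbmxl1 knockdown. Rbmx knockdown exceeded its same-numbered control in 4 of 4 pairs, although the groups overlapped. The log2 fold change was 0.25 ± 0.07 (SE, edgeR adjusted p = 0.0317) in Rbmx knockdown and 0.20 ± 0.07 (adjusted p = 0.0988) in Rbmxl1 knockdown. The call was not stable. Without the replicate block, where 0.00569% of all genes were called in each knockdown, the edgeR adjusted p in Rbmx knockdown was 0.444. With trends in exon length and GC content removed, the estimate was 0.18 and the adjusted p was 0.147. It was 0.129, 0.0681 and 0.131 without scramble replicates 1, 3 and 4, and 0.126, 0.0798 and 0.0682 without Rbmx knockdown replicates 1, 3 and 4. Of its 50-base words 43.9% occur in Gm10076, a long non-coding RNA gene whose own estimate was 0.20 ± 0.07 (adjusted p = 0.0973).

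The other genes with the largest upward estimates in Rbmx knockdown did not pass the threshold. Rps4x, an X-linked small-subunit protein, was at 815, 854, 681 and 745 CPM in scramble and at 1039, 1064, 816 and 791 in Rbmx knockdown (a log2 difference of 0.25 ± 0.09, adjusted p = 0.0779). Rps2, near the messenger entry channel, was at 1420, 1485, 1284 and 1347 CPM in scramble and at 1811, 1835, 1460 and 1444 in Rbmx knockdown (0.23 ± 0.08, adjusted p = 0.0774). Rpl26, at the exit tunnel, had 0.21 ± 0.07 (adjusted p = 0.093) and was higher in 4 of 4 pairs. The 3 stalk genes had somewhat smaller estimates: Rplp0 0.19 ± 0.07, Rplp1 0.16 ± 0.07 and Rplp2 0.18 ± 0.08 (adjusted p = 0.107, 0.147 and 0.181). In each of these 6 genes replicates 1 and 2 of Rbmx knockdown were above replicates 3 and 4.

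Genes with known roles outside the mature ribosome had small estimates. Rpl5 and Rpl11, which with 5S RNA form the particle that restrains Mdm2 when ribosome assembly fails, had estimates of 0.06 ± 0.06 and 0.03 ± 0.06 in Rbmx knockdown and −0.01 ± 0.06 and −0.02 ± 0.06 in Rbmxl1 knockdown. Rps6, the substrate of S6 kinase, was at 263, 269, 203 and 218 CPM in scramble and at 284, 284, 200 and 230 in Rbmx knockdown (0.06 ± 0.05, adjusted p = 0.512). Rps27a, made as a fusion to ubiquitin, had 0.04 ± 0.06, Rps3, which also acts in DNA repair, 0.11 ± 0.06, Rpl10, needed for late 60S maturation, 0.08 ± 0.07, and Rpsa, at the 40S surface, 0.13 ± 0.07. None of these 7 passed the threshold in either knockdown, where 8.35% and 4.46% of all genes did.

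Rpl24 was the only one of the 82 genes whose libraries did not overlap between a knockdown and scramble, as against 8.07% of all genes for Rbmx knockdown and 5.67% for Rbmxl1 knockdown. It stood at 1.403, 1.140, 1.095 and 1.384 CPM in scramble, at 0.613, 0.864, 0.904 and 1.03 in Rbmx knockdown and at 0.811, 0.735, 1.61 and 1.06 in Rbmxl1 knockdown. The log2 fold change in Rbmx knockdown was −0.57 ± 0.26 (adjusted p = 0.186), on an average of 49.4 reads per library.

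Knockdown of Rbmxl1 gave no call: 0 of 82 genes passed, against 4.46% of all genes, with 3 at an unadjusted p under 0.05 (Rpl26, Rpl27 and Rpl41; 19.8% of all genes) and 0 by DESeq2. Estimates were balanced, 40 of 82 above 0 with a median of −0.0033, where the median of all genes was 0.01. They ran from −0.29 (Rpl24) to 0.20 (Rpl41). Comparing the 2 knockdowns directly, 0 of 82 genes passed by edgeR or DESeq2, against 0.0114% of all genes, and 2 (Rps3a1 and Rps6) had an unadjusted p under 0.05, against 5.7% of all genes. In that comparison 73 of 82 estimates were higher in Rbmx knockdown (median 0.06). A test of whether the knockdown effect differed between replicates 1 and 2 and replicates 3 and 4, added after the data were seen, called 0 ribosomal protein genes for either knockdown, as it called 0.0% of all genes; 6 and 2 of the 82 had an unadjusted p under 0.05, against 11.1% and 8.36% of all genes.

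**Figure D3:**
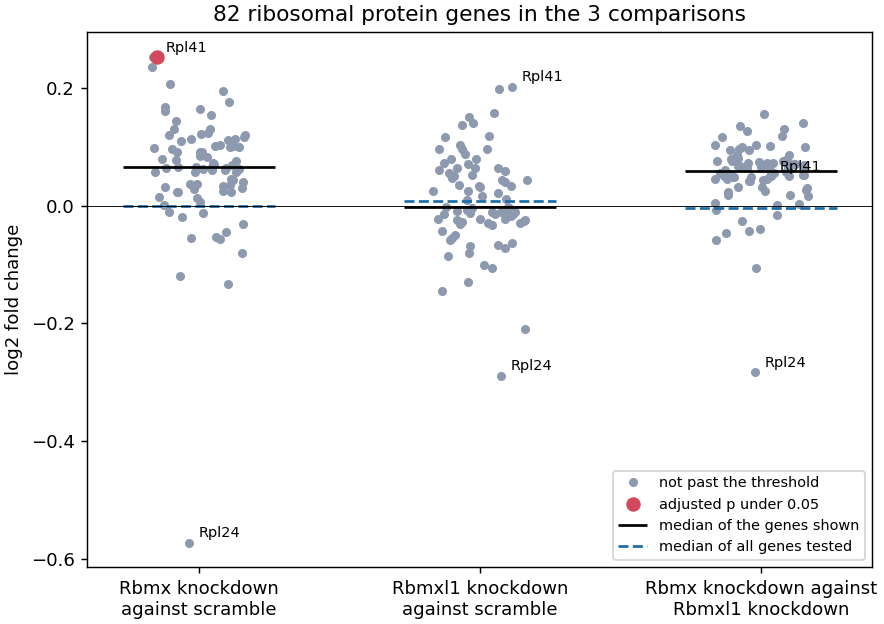
Log2 fold change of the 82 tested genes in the 3 comparisons (1 point per gene, spread sideways for visibility), with the median of these genes (solid) and of all genes tested (dashed). In Rbmx knockdown the points centre at 0.07 and only Rpl41 is past the threshold; in Rbmxl1 knockdown they centre near 0 with none past it.

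The replicate number was the main axis along which these genes varied. It was called for 76 of 82 genes (edgeR, test of the 3 replicate terms together), where 35.3% of all genes were called. Of the 76, 75 were lower (17.8% of all genes) and 1, Rps10, was higher in replicates 3 and 4 than in replicates 1 and 2. The median difference between these replicate sets was −0.38 (log2), where all genes had a median of 0.03. In 64 genes all 6 libraries of replicates 3 and 4 lay below all 6 of replicates 1 and 2, which held for 10.6% of all genes. The grouping of replicates into 1 and 2 against 3 and 4 was seen in the data, so these differences are given with their SE and without a test of their own.

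The 5 genes with the smallest p were Rpl17, Rps27, Rpl12, Rpl22 and Rps9. Rps27, a zinc-finger protein of the 40S subunit, was at 273 and 298 CPM in scramble replicates 1 and 2 and at 172 and 181 in replicates 3 and 4. It was at 260, 234, 163 and 178 in Rbmx knockdown and at 284.3, 254.6, 174.3 and 187.3 in Rbmxl1 knockdown, without overlap between the sets (−0.60 ± 0.05, adjusted p = 1.84e-06). Rpl12, at the base of the stalk, averaged 1248 CPM in replicates 1 and 2 and 833.9 in replicates 3 and 4 (−0.58 ± 0.05), and Rpl17, near the exit tunnel, averaged 585 and 405 (−0.53 ± 0.04). Rps9, an early-binding 40S protein, averaged 446 and 314 CPM (−0.51 ± 0.05).

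Pooled over the 3 groups, the difference was largest for Rpl22l1 and next for its paralogue Rpl22. Rpl22l1 was at 37.8, 39.5, 27.4 and 30.9 CPM in scramble, at 43.9, 41.1, 22.7 and 22.5 in Rbmx knockdown and at 53.04, 33.23, 20.02 and 23.66 in Rbmxl1 knockdown (−0.76 ± 0.10). Rpl22 was at 304, 312, 210 and 221 CPM in scramble, at 337, 304, 186 and 205 in Rbmx knockdown and at 390, 280, 190 and 209 in Rbmxl1 knockdown (−0.66 ± 0.06). In both genes the sets did not overlap. For Rpl22l1 the order may depend on the group: its set difference was estimated at −0.49 ± 0.19 relative to scramble in Rbmx knockdown and −0.55 ± 0.19 in Rbmxl1 knockdown (edgeR adjusted p = 0.383 and 0.48, not past the threshold). The stalk genes differed less than the median, with −0.13 ± 0.05 for Rplp1, −0.26 ± 0.06 for Rplp0 and −0.29 ± 0.06 for Rplp2. Rpl5 (−0.40 ± 0.05), Rpl11 (−0.33 ± 0.05), Rps6 (−0.38 ± 0.04), Rpsa (−0.41 ± 0.06), Rps27a (−0.42 ± 0.05) and Rps3 (−0.37 ± 0.05) lay near the median. Rpl10 (−0.48 ± 0.06) lay below the lower quartile of the 82 genes (−0.44).

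The lower level was not seen, or not called, in 7 genes. Rpl19 (−0.12 ± 0.07) and Rpl29 (0.01 ± 0.10) were near 0, and Rpl7l1 (0.17 ± 0.05), Rps27l (0.18 ± 0.07), Rpl24 (0.37 ± 0.21) and Rpl36al (0.46 ± 0.16) had positive estimates; none of these 6 was called (adjusted p = 0.0591 to 0.540). Rps10 was at 12.1, 12.1, 16.0 and 14.9 CPM in scramble, at 10.8, 11.8, 15.1 and 15.8 in Rbmx knockdown and at 7.89, 9.24, 17.4 and 14.8 in Rbmxl1 knockdown (0.57 ± 0.09, adjusted p = 0.000996). The Rps10 difference may depend on the group: relative to scramble it was estimated at 0.56 ± 0.16 in Rbmxl1 knockdown (edgeR adjusted p = 0.381, unadjusted p = 0.00397). That of Rps27l may too: relative to scramble it was 0.40 ± 0.15 in Rbmx and 0.27 ± 0.15 in Rbmxl1 knockdown (edgeR adjusted p = 0.379 and 0.7). These exceptions also depend on where reads are counted. With the reads of matching pseudogenes added to each gene, Rps10 had 0.30 ± 0.08 (adjusted p = 0.0369), Rpl36al 0.08 ± 0.13, Rpl24 −0.27 ± 0.13 (adjusted p = 0.337) and Rpl29 −0.27 ± 0.09 (adjusted p = 0.0378, called lower), whereas Rps27l (0.17 ± 0.07), Rpl7l1 (0.16 ± 0.05) and Rpl19 (−0.12 ± 0.07) moved little. Of the 7, 3 are the less abundant members of paralogue pairs (Rpl7l1, Rps27l and Rpl36al), whereas the like members Rpl22l1 (−0.76 ± 0.10) and Rpl39l (−0.31 ± 0.07) were called lower. Rpl24, Rpl36al, Rps10 and Rpl29 are the 4 genes with the lowest level per length, each with over 50% of its words shared.

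**Figure D4:**
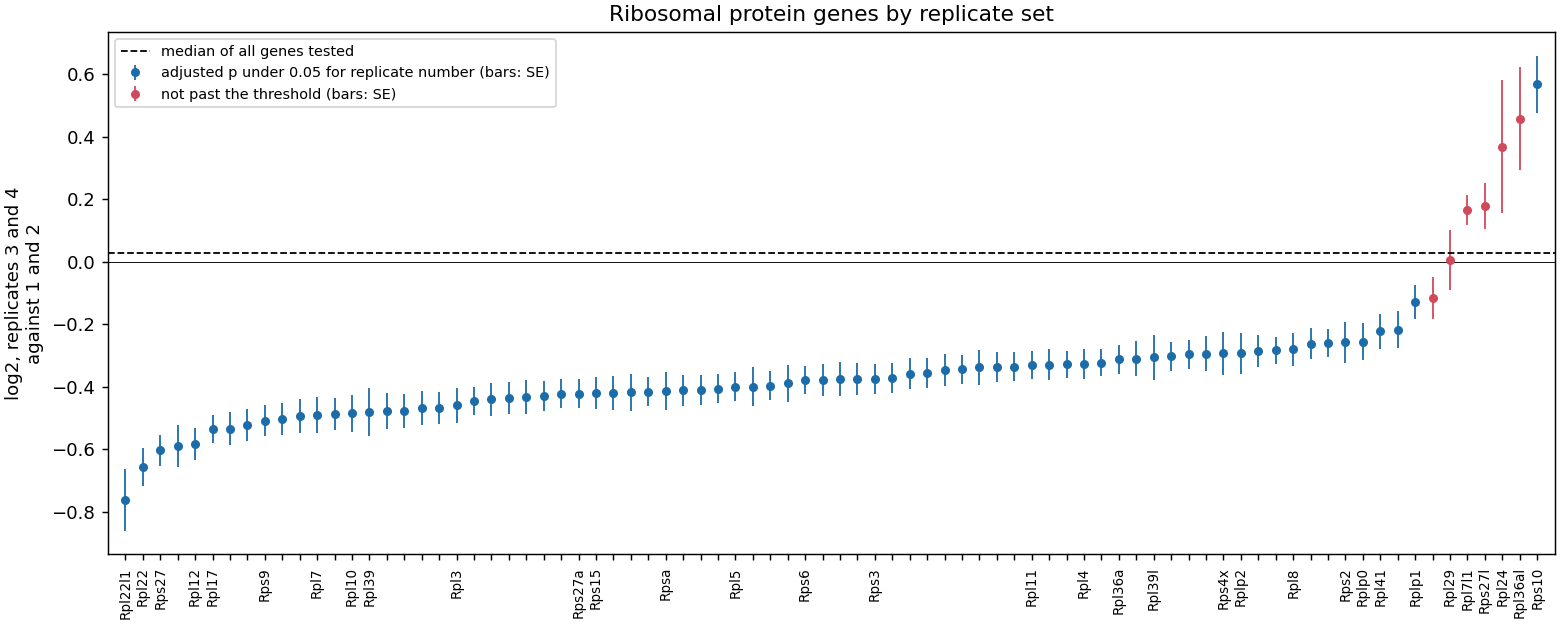
Log2 difference between replicates 3 and 4 and replicates 1 and 2, over all groups with the group terms in the fit, for each tested gene in order (point, with its SE; some of the genes are labelled), blue where the replicate number was called and red where it was not; the dashed line is the median of all genes. The called lower genes lie between −0.76 and −0.13, while Rpl29, Rpl7l1, Rps27l, Rpl24, Rpl36al and Rps10 lie at or above 0.

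Several features not used to choose the genes were compared as a description. The 30 genes that hold a small nucleolar RNA within them had a median set difference of −0.41 (range −0.59 to −0.26) and all 30 were called; the other 52 had −0.34 (−0.76 to 0.57), with 46 called. The median was −0.35 for the 22 genes with a pyrimidine run of at least 8 and −0.37 for the 40 with a shorter one. It was −0.38 for both subunits (50 and 32 genes), and −0.38 both for genes with more than 50% of their words shared and for the others. Among the 7 genes averaging under 50 CPM it was 0.18, and 3 of them were called.

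Other measures were compared between the replicate sets. Reads with several alignments were 22.6% to 26.5% of the file total in replicates 1 and 2 (mean 24.94%). They were 20.65% to 24.62% in replicates 3 and 4 (mean 22.54%), so the sets overlapped. Length was taken as the merged exons of each gene. Among genes other than ribosomal protein genes, those with up to 1 kb of exons had a median log2 deviation of 0.07 in replicates 3 and 4. Those with over 8 kb had one of −0.01. With length and GC trends removed the median set difference was −0.40, and with the reads of matching pseudogenes added it was −0.38, although single low-count genes moved as given above. The neuroblastoma markers had a median set difference of −0.16, with 7 of 13 called (6 lower, 1 higher), against 35.3% of all genes. The part of cell state, culture and library preparation in the difference was not tested.

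Genes that work with the ribosomal proteins went with them or against them by replicate set. Of 16 translation factors and related genes with terminal pyrimidine messengers, 15 were called for replicate number, all lower in replicates 3 and 4 (median −0.37), among them the elongation factors Eef2 (−0.51 ± 0.07) and Eef1a1 (−0.40 ± 0.06); Eif3a was not called. Rack1 (−0.40 ± 0.06) and Fau (−0.37 ± 0.05), 2 further ribosome components, were lower too. Of 30 ribosome assembly factors, 20 were called and all 20 were higher in replicates 3 and 4 (median over the 30, 0.26), against 35.3% of all genes called in either direction, led by Rrp12 (0.82 ± 0.05), Dkc1 (0.65 ± 0.05), Nop56 (0.61 ± 0.06) and Noc2l (0.59 ± 0.06). Of 14 genes of RNA polymerase I and its initiation factors, 8 were higher, 2 lower and 4 not called (median 0.25). Of 77 tested mitochondrial ribosomal protein genes, 18 were higher, 7 lower and 52 not called (median 0.05), so that the share called, 32.5%, was near that of all genes.

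With knockdown, the lists were read against the 8.35% (Rbmx) and 4.46% (Rbmxl1) of all genes called. In Rbmx knockdown 0 of 16 translation factors, 1 of 30 assembly factors (Mrto4, higher, 0.22 ± 0.06, adjusted p = 0.0443), 1 of 14 polymerase I genes (Ubtf, lower, −0.20 ± 0.06, adjusted p = 0.0472) and 5 of 77 mitochondrial ribosomal protein genes (6.49%) changed. The last share is near that of all genes. All 5 were higher, with Mrps24 (0.27 ± 0.08), Mrpl17 (0.26 ± 0.06), Mrpl15 (0.25 ± 0.07) and Mrpl28 (0.20 ± 0.06) the largest. In Rbmxl1 knockdown the only call in these 4 lists was Gnl3, an assembly factor (−0.24, adjusted p = 0.0434). Of 13 genes of the mTOR, LARP1 and Myc axis, 2 were called in each knockdown (15.4%). Tsc1, an inhibitor of mTOR signalling, was lower in Rbmx and in Rbmxl1 knockdown (−0.32 and −0.22, adjusted p = 0.00571 and 0.0318), and Mycn, the oncogene of neuroblastoma, was higher (0.56 and 0.66, adjusted p = 0.0126 and 0.00844). Without the replicate block no gene of these lists was called in either knockdown. The 2 knockdowns share the scramble libraries.

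Paralogue pairs were compared by the log2 ratio of their reads within each library, which needs no library size. Of 8 pairs, 6 had enough reads for a test, and none of 12 differences between a knockdown and scramble passed the threshold (exact two-sided permutation test, lowest p = 0.143, smallest p that 4 against 4 libraries allow 0.0286, lowest adjusted p = 0.814). After adjustment over the 12 tests no single pair could have passed, and the difference between replicates counts as spread in this test, so it says little about any one pair. Rpl22 is known to restrain the expression of Rpl22l1. The ratio of Rpl22 to Rpl22l1 was 3.01, 2.98, 2.94 and 2.84 in scramble, 2.94, 2.89, 3.04 and 3.19 in Rbmx knockdown and 2.88, 3.08, 3.25 and 3.14 in Rbmxl1 knockdown. It stayed between 2.84 and 3.25 although both genes were lower in replicates 3 and 4. The differences from scramble were 0.07 and 0.14, of the order of the SD within groups (0.08, 0.13 and 0.16).

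The ratio of Rps27 to Rps27l, a p53 target, followed the replicate number instead. It was 2.95, 2.76, 2.22 and 2.18 in scramble, 2.82, 2.52, 1.76 and 1.81 in Rbmx knockdown and 2.75, 2.85, 1.97 and 2.02 in Rbmxl1 knockdown. The 6 libraries of replicates 1 and 2 (2.52 to 2.95) did not overlap those of replicates 3 and 4 (1.76 to 2.22). Rbmx knockdown was below scramble in 4 of 4 same-numbered pairs, with a mean difference of −0.30 (exact permutation p = 0.371; exact sign-flip test over the 4 pairs p = 0.125, the smallest it allows). Of the Rps27 words 98.6% also occur in Rps27rt, which had 50.7 reads on average.

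Rpl7 against Rpl7l1, a nucleolar relative, behaved alike: 2.65 to 3.08 in replicates 1 and 2 of all groups and 2.00 to 2.21 in replicates 3 and 4, with differences from scramble of 0.10 in Rbmx knockdown (p = 0.514; higher in 4 of 4 same-numbered pairs, exact sign-flip p = 0.125, the smallest 4 pairs allow) and 0.11 in Rbmxl1 knockdown (p = 0.743, exact permutation tests). Rpl36a against Rpl36al ran from 6.505 to 6.777 in replicates 1 and 2 and from 5.43 to 6.23 in replicates 3 and 4. Its differences from scramble were −0.07 in Rbmx knockdown (exact permutation p = 0.8286) and −0.21 in Rbmxl1 knockdown (p = 0.629), the latter lower in 4 of 4 same-numbered pairs (exact sign-flip p = 0.125). The ratio of Rpl39 to Rpl39l, a testis-enriched copy that is present in this line at 15.9 to 19.7 CPM in scramble, was 2.12, 2.24, 1.87 and 2.07 in scramble, 1.85, 2.07, 2.09 and 2.07 in Rbmx knockdown and 2.34, 2.04, 1.77 and 1.77 in Rbmxl1 knockdown, so its replicate sets overlapped. Rpl3 exceeded Rpl3l by 11.1 to 12.6 on the log2 scale. Rpl10 against Rpl10l and Rps4x against Rps4l, an annotated pseudogene, were not tested; Rps4l had 2, 3, 2 and 1 reads in scramble, 0, 0, 0 and 3 in Rbmx knockdown and none in Rbmxl1 knockdown.

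**Figure D5:**
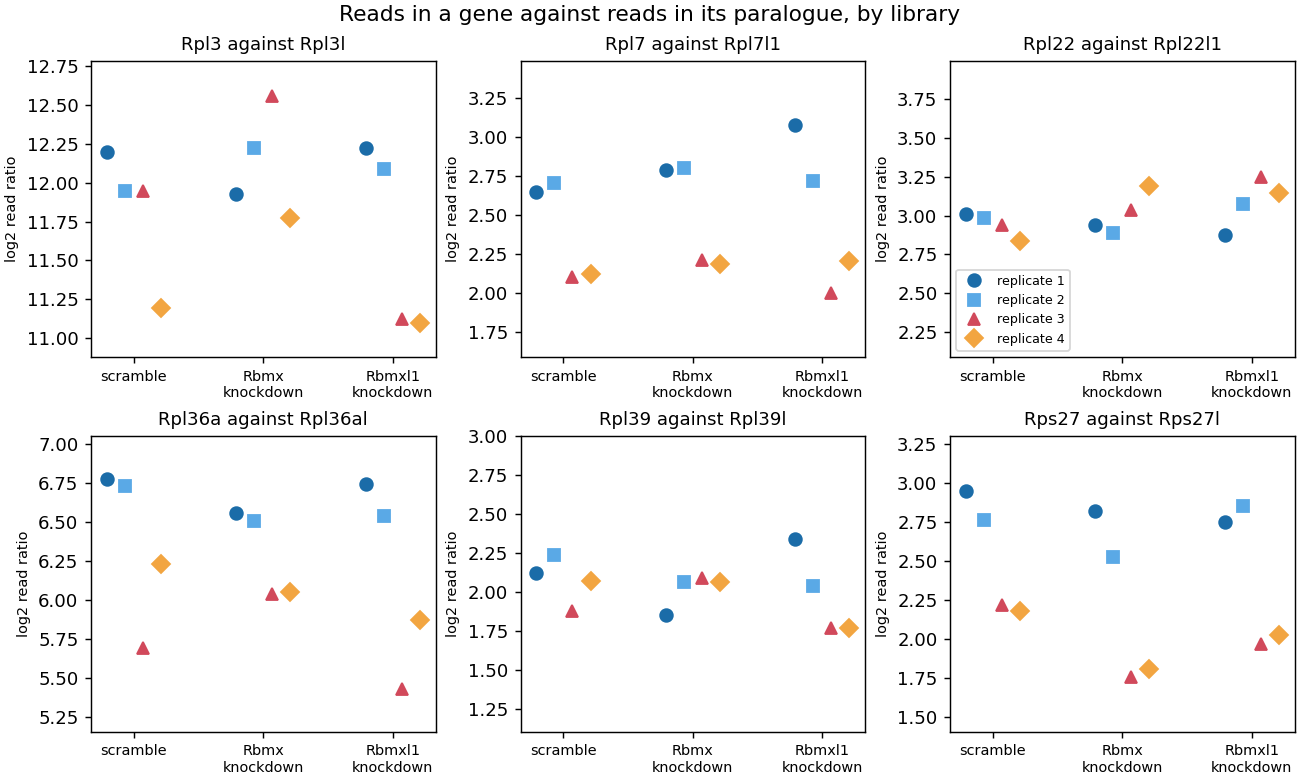
Log2 ratio of reads in a gene to reads in its paralogue, 1 marker per library, for the 6 pairs tested; every panel spans the same height, and shape and colour give the replicate number. Rps27 against Rps27l and Rpl7 against Rpl7l1 fall from replicates 1 and 2 to replicates 3 and 4 in each group, while Rpl22 against Rpl22l1 stays between 2.84 and 3.25.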

How the data were processed

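The authors deposited raw read counts per Ensembl gene for each of the 12 libraries, followed by 5 rows that name no gene, which entered neither library sizes nor tests. The submitters' processing notes name build mm10, cutadapt, STAR 2.5.3a, HTSeq 0.6.1p1, R 3.3.2 and DESeq2 1.16.1; annotation, strand setting, counting mode and read length are not given in the sources used here. Libraries were made with a stranded total RNA kit, per the labels' protocols. Of 55401 identifiers, 55141 matched GENCODE M21.

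Counts were fitted in edgeR 4.0.16 (R 4.3.3; filterByExpr, TMM scaling, quasi-likelihood test) with terms for group and replicate number over all 12 libraries. Calls used a Benjamini-Hochberg adjusted p under 0.05 over the 17569 genes tested. DESeq2 1.42.0 was an alternative. Replicate number was the block because same-numbered libraries deviated together (correlation of deviations from group means 0.195 to 0.524 in all 12 pairs). Libraries of another number within replicates 1 and 2 or within 3 and 4 correlated at 0.1 to 0.431, and across these sets at −0.573 to −0.129, so that part of the pairing is shared by the set (the labels give only the number). SE is the fold change over the square root of F. Levels are CPM on TMM library sizes, divided by principal transcript length where given per kb. Shared words were searched among all M21 transcripts on both strands; a pseudogene matched with at least 20% of its 25-base words. Paralogue ratios used a pseudocount of 0.5. Scripts were tested on simulated data. The genes, lists, block and tests were chosen with earlier results of these data known. Named genes were those called in a knockdown, the 5 highest and 5 lowest per length, paralogue pairs, the 5 lowest p for replicate number, 10 fixed by role, up to 4 called per list and those whose groups did not overlap; others carry a remark or come from counts. A few genes are not reported here.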

Additional observations from a re-analysis of the deposited data

Results flagged for a closer look

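Of 126 groups of 4 libraries examined for a single library far from the other 3, 6 stood out. Chance flags about 1 in 20 groups of exchangeable libraries, but most groups here split by replicate set, so that share does not apply directly. Rpl29 was at 13.8 CPM in scramble replicate 2, with the next at 11.6. Rpl36al was at 1.99 CPM in Rbmx knockdown replicate 4, with the next at 1.55. Rpl41 was at 627 CPM in Rbmxl1 knockdown replicate 3, with the next at 767. In Rbmxl1 knockdown replicate 1, Rplp2 was at 473.5 CPM (next 345) and Rps4x at 1129 CPM (next 796). The log2 ratio of Rpl39 to Rpl39l was 1.85 in Rbmx knockdown replicate 1, with the next at 2.07.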

How the results depend on the processing

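The number of ribosomal protein genes called in Rbmx knockdown was 1 under TMM, DESeq2 size factors, upper-quartile scaling, TMM without these genes and added pseudogene reads. It was 0 with no replicate block, 0 with length and GC trends removed and 0 in replicates 1 and 2 alone. It was 4 with no low-count filter (Rpl41, Rps4x, Rps2, Rplp0), 4 in replicates 3 and 4 alone (among them Rpl41 and Rps27l higher and Rpl22l1 lower) and 3 by DESeq2 (Rpl41, Rps4x, Rps2). It ranged from 0 to 3 with libraries or replicate numbers left out: 3 without Rbmxl1 knockdown replicate 1 or 2, 2 without scramble replicate 2. For Rbmxl1 knockdown it was 0, with 1 without the filter (Rpl41) and 1 in replicates 3 and 4 alone (Rpl22l1, lower), and 0 to 2 with libraries left out, the 2 (Rps4x among them) without replicate 2 of that group. The direct comparison gave 0 throughout. Replicate number was called for 67 to 77 genes. The replicate block changed the calls as given; for the paralogues its exact sign-flip test over 4 pairs cannot go below p = 0.125, so it has no bearing on those calls. Leaving out a library, the Rpl22 to Rpl22l1 difference in Rbmxl1 knockdown ran from 0.0916 to 0.214, reaching p = 0.0286 (exact permutation, the smallest allowed for 4 against 3) without replicate 1 of that group. With pseudogene reads added, the replicate set difference of Rpl24 turned from 0.37 to −0.27, that of Rps10 went from 0.57 to 0.30, and Rpl29 became called lower. The cause of these changes was not tested. Genes with few assignable reads, chiefly Rpl24 and Rpl36al, limit what could be detected.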
